A study of Homo sapiens with 4 samples.

Results

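The genes described are 10 ligands through which tumour cells are seen, spared or costimulated by T cells, natural killer cells and macrophages: TNFSF9, CD70, MICA, MICB, ULBP1, ULBP2, ULBP3, PVR, CD274 and CD47. They were taken by gene symbol from the 37247 gene rows of a single deposited table, and all 10 had a row. The group was assembled with results of this comparison in view, TNFSF9 being among the largest increases, so the members were chosen by the same TPM values of these 4 libraries that are given below. They are a description and no test is read from them. AMO1, labelled wild type, is a human plasmacytoma cell line in which myeloma drugs are studied. It was treated for 6 h with periplocin, labelled as 0.2 mM, or with DMSO at 0.10%, the vehicle. The labelled periplocin dose is far above what is usual for cardiac glycosides in culture, so its unit is uncertain. Periplocin is a plant cardiac glycoside, of the class that inhibits the sodium pump. Each group had 2 RNA sequencing libraries of total RNA, 4 in all, and the title of the series asks how such drugs lower c-Myc. Separate cultures are not labelled, so the spread between libraries, on which every p-value rests, may be purely technical. In bulk RNA of this kind, fewer cells with a transcript and less of it per cell cannot be told apart.

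The members fall into 4 kinds. TNFSF9 (4-1BBL) and CD70 are costimulatory ligands of the TNF superfamily, type II membrane proteins that bind 4-1BB and CD27 on lymphocytes. MICA, MICB and the ULBP proteins are stress-inducible relatives of MHC class I that bind NKG2D on natural killer and T cells. PVR (CD155) binds the activating receptor DNAM-1 and the inhibitory receptors TIGIT and CD96. CD274 (PD-L1) and CD47 restrain T cells through PD-1 and macrophages through SIRP-alpha. Surface amounts of all of these also depend on protein trafficking and shedding, which RNA values do not measure.

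The genes lie in a few clusters, by GENCODE 29 on GRCh38. TNFSF9 (ENSG00000125657.4) is on the plus strand of chromosome 19, at 6530999 to 6535928, with 1 annotated transcript of 3 exons. CD70 (ENSG00000125726.10) lies on the minus strand at 6583183 to 6604103 of the same chromosome, so that the genes point towards each other across 47.3 kb. MICA (31399784 to 31415315) and MICB (31494881 to 31511124) are in the MHC region of chromosome 6. ULBP2, ULBP1 and ULBP3 lie between 149942000 and 150069095 of that chromosome. PVR is on chromosome 19 at 44643798 to 44663583, CD274 on chromosome 9 at 5450503 to 5470566 and CD47 on chromosome 3 at 108043094 to 108091862.

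Promoter sequence is shown for the 3 tested members outside the MHC that have an entry in the RefSeq promoter table (GRCh38.p14, 300 bases around the annotated start, 5′ to 3′), because these span a member far higher with periplocin, one slightly higher and one near 1 TPM. Of the 10 members 9 had an entry, and CD70 had none. Capitals mark the TATA box letters TATAAA, the GC box letters GGGCGG and the GT box letters GGGCGTGG, searched on both strands. The sequences are TNFSF9 at chr19:6530776-6531075 on the plus strand, CD47 at chr3:108090982-108091281 on the minus strand and CD274 at chr9:5450292-5450591 on the plus strand.
TNFSF9: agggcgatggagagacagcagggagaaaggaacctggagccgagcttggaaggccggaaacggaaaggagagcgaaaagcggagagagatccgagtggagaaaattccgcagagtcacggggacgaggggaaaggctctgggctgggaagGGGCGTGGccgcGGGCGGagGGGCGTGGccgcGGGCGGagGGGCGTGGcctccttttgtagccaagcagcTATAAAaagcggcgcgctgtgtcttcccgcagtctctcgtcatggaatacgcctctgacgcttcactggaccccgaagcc
CD47: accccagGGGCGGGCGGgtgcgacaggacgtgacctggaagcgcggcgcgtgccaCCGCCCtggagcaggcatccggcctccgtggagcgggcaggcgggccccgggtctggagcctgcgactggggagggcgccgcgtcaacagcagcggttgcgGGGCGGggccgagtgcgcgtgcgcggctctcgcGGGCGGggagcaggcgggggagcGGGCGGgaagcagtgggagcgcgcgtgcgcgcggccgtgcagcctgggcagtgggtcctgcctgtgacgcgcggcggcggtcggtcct
CD274: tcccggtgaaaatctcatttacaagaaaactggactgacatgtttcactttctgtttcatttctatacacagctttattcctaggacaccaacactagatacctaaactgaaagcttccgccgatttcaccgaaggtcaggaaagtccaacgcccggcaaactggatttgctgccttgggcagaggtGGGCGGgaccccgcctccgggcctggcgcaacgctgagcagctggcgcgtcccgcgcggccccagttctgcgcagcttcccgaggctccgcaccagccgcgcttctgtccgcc
The TNFSF9 window held 1 TATA box, which starts 30 bases before the start site of the promoter entry (at -30). That start site is not the GENCODE 29 start given above (6530999), which falls within the TATA box letters. The window also held 2 GC boxes and 3 GT boxes in a short tandem repeat, with no overlap between the marked motifs. The CD47 window lies wholly inside the GENCODE 29 extent of its gene (108043094 to 108091862), so its start also differs. TATAAA was found in 11.5% of the 35116 promoters of that length, GGGCGG in 45.0% and GGGCGTGG in 5.02%. CD47 held 6 GC boxes, some overlapping one another, and CD274 held 1, and neither window held TATAAA or GGGCGTGG. GC content was 63.3% for TNFSF9, 79.0% for CD47 and 57.3% for CD274. No window of the 3 held an AP-1 site (TGANTCA, in 7.71% of promoters), a CRE (TGACGTCA, 1.85%), an E-box (CACGTG, 7.26%), an ATF4 site (TGATGNAA, 3.62%), an EGR site (GCGTGGGCG, 0.795%) or the NF-kB consensus (5.91%). The heat shock letters GAANNTTC (6.77%) occurred once in TNFSF9. These are matches of letters in a 300-base window and no evidence of binding.

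The values are TPM, a transcript abundance given as a share of the library's total and corrected for transcript length, so levels can be set side by side between genes, and which keep no record of read depth. Among the 10 members 3 were above 10 TPM, and the other 7 were below 2 TPM in every library. CD70 was the most abundant in each library, with TNFSF9 next in the periplocin libraries and CD47 next in the DMSO libraries.

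TNFSF9 stood at 238 and 208 TPM with periplocin, against 44.8 and 47.3 TPM with DMSO. Both periplocin libraries were far above both DMSO libraries. The means were 223 ± 20.9 TPM with periplocin and 46.0 ± 1.72 TPM with DMSO (SD, n = 2 each), a ratio of 4.85. On log2(TPM + 1) the fold change was 2.25 (standard error 0.10). That was the 18th largest increase among the 12947 genes tested here, which are those with 1 TPM or more in 2 or more libraries. By level the gene was at percentile 98.6 of all rows with periplocin and 91.7 with DMSO. Of the 37247 rows ranked, 16015 were listed at 0 in all 4 libraries, which raises the percentile of every gene above them. The 31-base words of the TNFSF9 transcript were shared with other genes for 0.550%.

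CD70 stood at 734 and 716 TPM with periplocin, against 382 and 339.9 TPM with DMSO. The groups did not overlap, and the periplocin libraries lay closer to each other than the DMSO libraries did. The means were 725 ± 12.2 and 361 ± 29.8 TPM (SD, n = 2 each), a ratio of 2.01 and a log2 difference of 1.01 (standard error 0.08). CD70 was already at percentile 99.2 of all rows with DMSO and was at 99.5 with periplocin. It exceeded TNFSF9 3.08 and 3.44 times in the periplocin libraries and 8.52 and 7.19 times in the DMSO libraries. None of its 31-base words occurred in another gene.

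**Figure D1:**
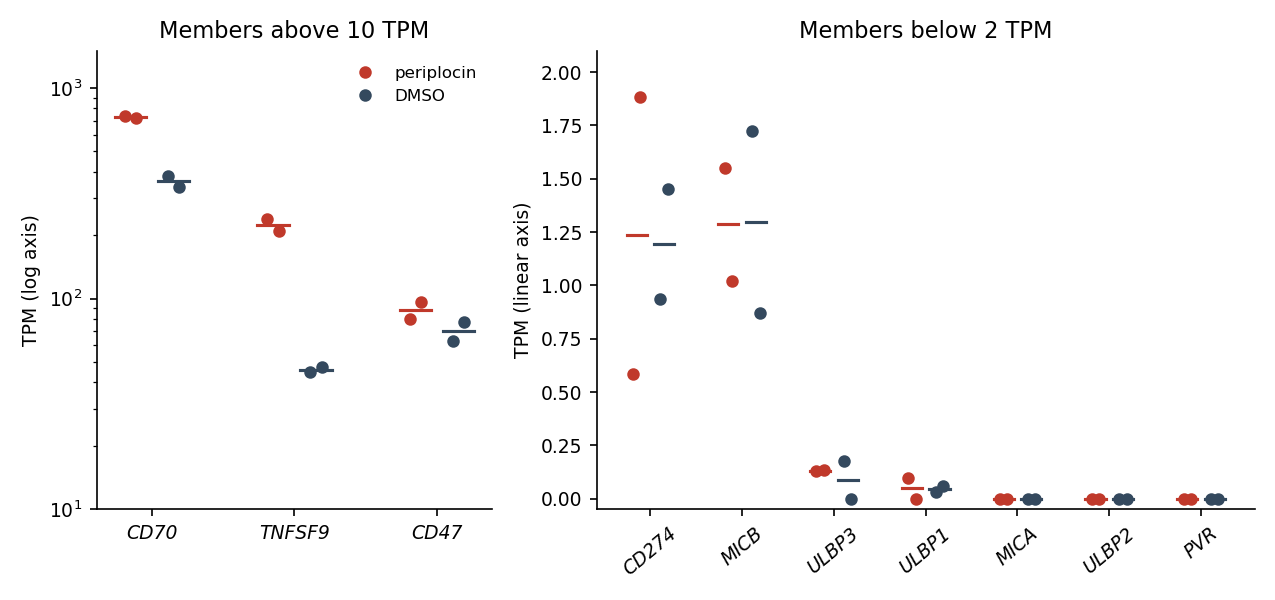
TPM of each member in every library, periplocin in red and DMSO in dark blue, with short lines for the group means (2 libraries each); the left axis is logarithmic and the right one linear. TNFSF9 (208 to 238 against 44.8 to 47.3 TPM) and CD70 separate widely between the groups, CD47 narrowly, and 7 members lie below 2 TPM.

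CD47, the signal that restrains engulfment, stood at 79.9 and 96.7 TPM with periplocin, against 62.6 and 77.8 TPM with DMSO. The lowest periplocin library was only just above the highest DMSO library. The means were 88.3 ± 11.8 and 70.2 ± 10.8 TPM (SD, n = 2 each), a ratio of 1.26 and a log2 difference of 0.33 (standard error 0.15). The log2 fold change was 0.17 without DMSO replicate 1 and 0.19 without periplocin replicate 2, and 0.48 and 0.46 without the other library of each group. CD47 was not called higher as deposited. It was called with median centring, at a log2 difference of 0.49, and with the replicate block, at the unchanged 0.33. That block pairs libraries that share only a number.

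CD274 stood at 0.584 and 1.88 TPM with periplocin, against 0.938 and 1.45 TPM with DMSO. The DMSO values lie between the periplocin values, so the groups overlap. The log2 difference was -0.03 (standard error 0.39). The neighbouring gene for PD-L2, PDCD1LG2, named after its value was seen, was at 0.135 and 0.0463 TPM with periplocin and 0.558 and 0.211 TPM with DMSO, too low to be tested.

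MICB stood at 1.55 and 1.02 TPM with periplocin, against 1.72 and 0.871 TPM with DMSO, and the groups overlap. MICA was listed at 0 in every library. Neither value can be read as the level of its gene. DDX39B, an RNA helicase gene in the same region that cells in general express, was also listed at 0 in every library, and CSNK2B, for a subunit of casein kinase 2, reached 0.0477 TPM in 1 periplocin library and was listed at 0 in the others. These context genes were chosen after their values were seen. Of the protein-coding rows within 500 kb of MICA or MICB 19 of 61 (31.1%) were listed at 0 in all libraries, against 200 of 940 (21.3%) of the other protein-coding rows of chromosome 6. The table also held 2627 rows with no position in the GENCODE 29 primary assembly, which carried 34691 and 34437 TPM with periplocin and 31986 and 31394 TPM with DMSO. Whether some of these hold MICA or MICB was not tested, since no name is given for them. MICA and MICB transcripts in addition share 8.77% and 7.48% of their 31-base words with each other.

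The ULBP genes were near or at 0. ULBP3 stood at 0.130 and 0.133 TPM with periplocin, against 0.175 and 0 TPM with DMSO. ULBP1 stood at 0.0987 and 0 TPM with periplocin, against 0.0291 and 0.0617 TPM with DMSO. Neither gene separated the groups, and ULBP2 was listed at 0 in all 4 libraries. Of the other NKG2D ligands RAET1E was listed at 0 in both periplocin libraries, against 0 and 0.253 TPM with DMSO, and RAET1G and RAET1L were listed at 0 throughout. These genes share sequence: 44.2% of the 31-base words of ULBP2 occur in another gene, 41.7% in RAET1L alone, and 13.9% of those of ULBP1 and 17.4% of those of ULBP3 do, so their values are uncertain.

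PVR was listed at 0 in all 4 libraries, and 2.70% of its 31-base words occur in another gene. A value of exactly 0 in such a table can be a failed estimate, so PVR is described only as listed at 0. NECTIN2, the other ligand of DNAM-1, named after its value was seen, was at 1.83 and 2.37 TPM with periplocin and 4.06 and 2.62 TPM with DMSO, with a log2 fold change of -0.47 (limma adjusted p = 0.258).

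Of the 5 members that passed the filter, 2 (TNFSF9 and CD70) were called higher at an adjusted p under 0.05 by limma over all tested genes, and none lower. With median centring, and with the replicate block, 3 were called higher, CD47 being added. Among all tested genes 10.4% were called higher and 18.9% lower. In 3 of the 5 (TNFSF9, CD70 and CD47) the periplocin libraries lay above the DMSO libraries with no overlap, as they did in 25.4% of all tested genes, against 43.4% with the opposite order. Since this contrast was used to choose the members, nothing is read from these counts. The median log2 fold change of the 5 was 0.33, against -0.14 over all tested genes. The sum over the 10 members was 1054 and 1024 TPM with periplocin, against 492 and 467 TPM with DMSO. The 5 include MICB and the sum takes in MICA and MICB, whose values are not read as the levels of their genes. TNFSF9 made up 22.6% and 20.3% of that sum with periplocin and 9.10% and 10.1% with DMSO.

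**Figure D2:**
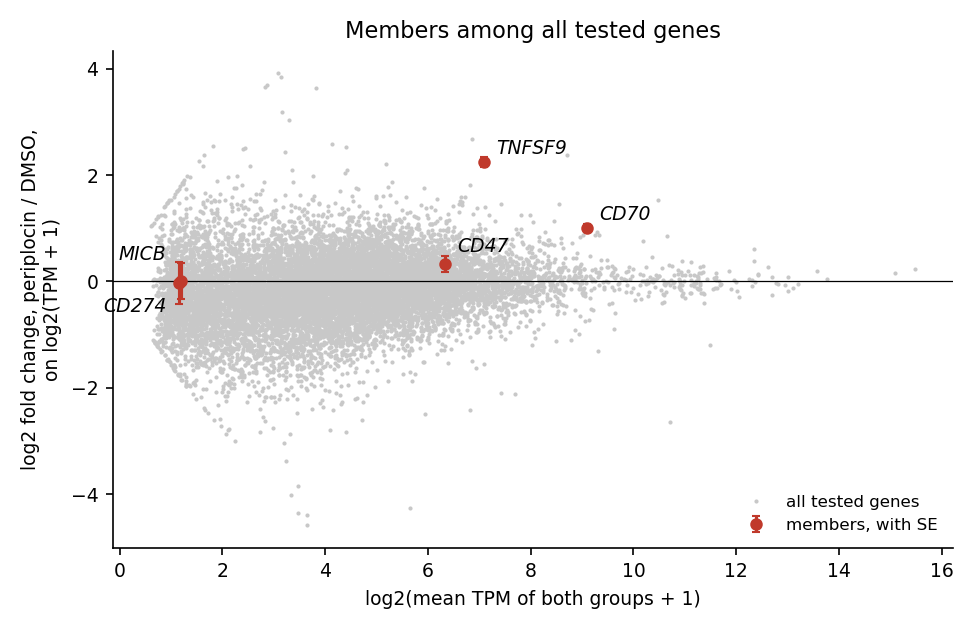
Log2 fold change of periplocin over DMSO on log2(TPM + 1), against the log2 of the mean TPM plus 1, for all 12947 tested genes (grey) and the 5 tested members (red, bars are standard errors). TNFSF9 (2.25) and CD70 (1.01) lie well above 0 at high level. CD274 and MICB lie near 0 at low level with wide errors, though the MICB value is not read as the level of its gene.

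The fold changes of the 3 abundant members kept their sign under every setting run, which was largely fixed in advance and is no support for them. The filter, trend, replicate block and symbol row settings left these fold changes exactly as reported. Since the groups of these 3 did not overlap, leaving out a library could not turn the sign. TNFSF9 ranged from 2.15 to 2.41, CD70 from 0.92 to 1.17 and CD47 from 0.17 to 0.49. CD274 (-0.46 to 0.40) and MICB (-0.26 to 0.32) took both signs, and the MICB value is not read as the level of its gene. With either DMSO library left out and the same genes tested, no gene in the table passed, TNFSF9 and CD70 included (limma; 3925 genes had an unadjusted p under 0.05 without DMSO replicate 1 and 4156 without DMSO replicate 2). These alternatives use a single DMSO library, which is assumed to vary as the periplocin pair does. Whether genes pass in them also depends on which low genes are tested, as given in the closing section, so nothing is read from it. Without DMSO replicate 1 and without DMSO replicate 2 the log2 fold change was 2.21 and 2.29 for TNFSF9. For CD70 it was 1.09 and 0.92, and these values were the same with the filter redrawn.

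**Figure D3:**
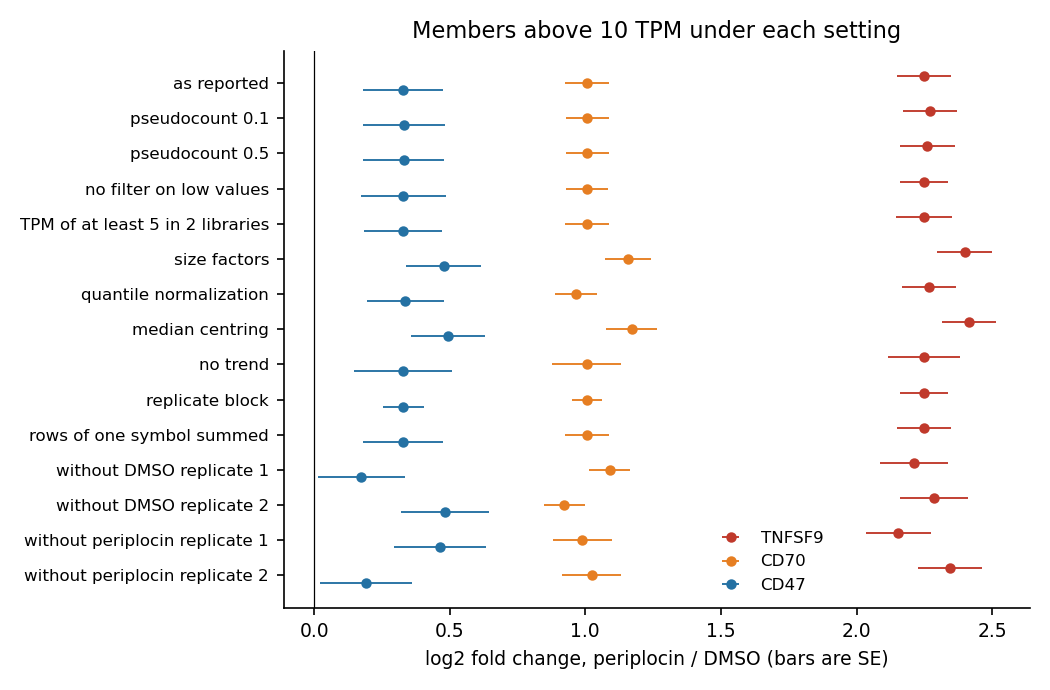
Log2 fold change of periplocin over DMSO for TNFSF9, CD70 and CD47 (points, bars are standard errors) as reported and under each alternative setting. TNFSF9 stays between 2.15 and 2.41, CD70 between 0.92 and 1.17 and CD47 between 0.17 and 0.49.

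As reported, no other tested gene within 100 kb of TNFSF9 or CD70 was called higher, though SLC25A23 lay at the threshold. Of the 4 other tested genes within 100 kb of TNFSF9, DENND1C, a regulator of Rab GTPases, fell to 18.0 and 19.4 TPM with periplocin, against 32.5 and 28.4 TPM with DMSO (log2 fold change -0.67, limma adjusted p = 0.0176). The tubulin gene TUBB4A (-0.47, limma adjusted p = 0.0520), SLC25A23 (0.32, 0.0504) and CRB3 (-0.47, 0.436) did not pass. SLC25A23, a mitochondrial carrier, was called higher with size factors (0.47, 0.0189), with median centring (0.49, 0.0188) and with a filter at 5 TPM (0.32, 0.0402). With that filter TUBB4A was called lower (-0.47, 0.0381), and DENND1C did not pass with no filter on low values (0.0520). TNFSF14, the next TNF superfamily gene on that side of CD70, was at 0.0471 and 0.0800 TPM with periplocin and 0.0689 and 0.0738 TPM with DMSO. Near the other members, BCL3 beside PVR fell (-0.63, limma adjusted p = 0.0210) and HLA-B beside MICA rose (0.62, 0.0203), though HLA-B lies in the MHC region described above. BCL3 did not pass with no filter on low values (0.0616) or with median centring (0.0616). PLGRKT beside CD274 (-0.34, 0.122) and IFT57 beside CD47 (-0.09, 0.664) did not pass.

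**Figure D4:**
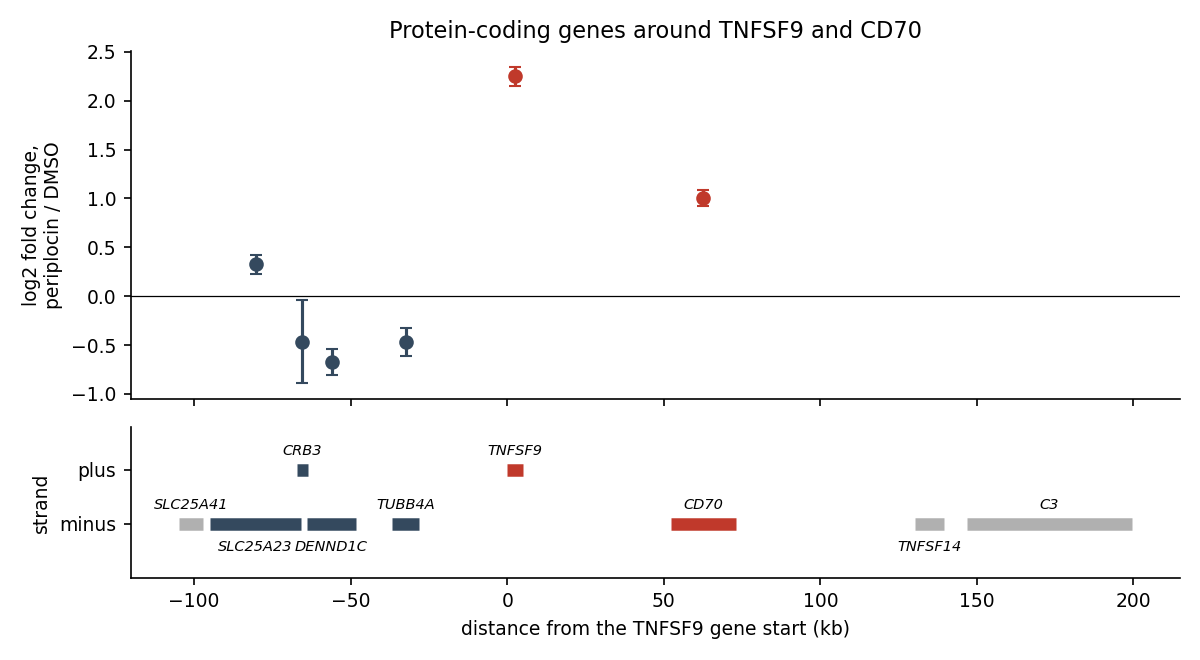
Upper panel, log2 fold change of periplocin over DMSO (bars are standard errors) of the tested protein-coding genes within 100 kb of TNFSF9 or CD70; lower panel, their extent and strand against the distance in kb from the TNFSF9 gene start, with TNFSF9 and CD70 in red and untested genes in grey. The 2 ligand genes, at 2.25 and 1.01, lie above the other 4 tested genes, which range from -0.67 to 0.32.

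By the root mean square difference of log2(TPM + 1) over the 4 libraries, the genes most like TNFSF9 were ICAM1 (0.257), MARCKS (0.377), SLAMF7 (0.410), GDF15 (0.428) and GADD45B (0.449). ICAM1, the ligand of the integrin LFA-1, came nearest, at 179 and 172 TPM with periplocin, against 49.6 and 48.3 TPM with DMSO. MARCKS, a membrane-bound protein kinase C substrate, was at 158 and 155 TPM with periplocin, against 48.8 and 53.4 TPM with DMSO. The measure rests on 4 libraries in 2 groups and is a description.

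Outside the members, no ligand row of the TNF superfamily held more than 1.46 TPM in any library. LTB, at 0.131 TPM in DMSO replicate 2 and listed at 0 elsewhere, lies 69.4 kb from MICB in the MHC region described above. Its value is not read as the level of its gene. Of 16 listed genes 14 had a row (TNF and LTA had none and are not analysed here). Of these, 2 were tested with a median log2 fold change of -0.39, and none passed. A further 5 were listed at 0 in every library, which can be a failed estimate and is not read as a low level. TNFSF10, the death ligand TRAIL, was at 0.465 and 0.691 TPM with periplocin, against 1.35 and 1.24 TPM with DMSO (log2 fold change -0.54, limma adjusted p = 0.225). EDA, a ligand in skin appendage development, was at 0.411 and 1.22 TPM with periplocin, against 0.882 and 1.32 TPM with DMSO (-0.24, limma adjusted p = 0.645). 

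The receptors of the members were mostly below 1 TPM. Of 9 receptor genes 7, TNFRSF9 for 4-1BB among them, stayed below that level in every library, and of the 2 tested (median -0.02) none passed. CD96, a receptor of PVR, was at 7.84 and 10.5 TPM with periplocin, against 7.44 and 5.60 TPM with DMSO (0.44, limma adjusted p = 0.205). CD27, the receptor of CD70, was at 1.45 and 0.123 TPM with periplocin, against 1.17 and 1.47 TPM with DMSO (-0.48, limma adjusted p = 0.444), a difference set by 1 periplocin library.

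Among nectins and related adhesion genes 2 of 4 tested rose and none fell (median 0.18), where 10.4% of all tested genes were called higher and 18.9% lower. NECTIN1, a cell adhesion receptor, was at 446 and 415 TPM with periplocin, against 343 and 367 TPM with DMSO (0.28, limma adjusted p = 0.0410). CADM1, a ligand of the lymphocyte receptor CRTAM, was at 101 and 106 TPM with periplocin, against 78.6 and 84.7 TPM with DMSO (0.34, 0.0379). Neither passed with no filter on low values (0.0977 and 0.0699) or without the mean-variance trend (0.173 and 0.115).

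Of the B7 family and other checkpoint ligands 9 of 20 were tested, none rose and 2 fell (median -0.04), or 22.2% of those tested beside 18.9% of all tested genes. BTN3A1, a butyrophilin sensed by gamma delta T cells, was at 15.8 and 19.2 TPM with periplocin, against 25.1 and 26.8 TPM with DMSO (-0.55, limma adjusted p = 0.0405). LGALS3, the galactose-binding lectin galectin-3, was at 466 and 483 TPM with periplocin, against 589 and 544 TPM with DMSO (-0.25, 0.0448). Neither passed with size factors (0.0863 and 0.348) or median centring (0.0981 and 0.463).

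Of 7 tested adhesion and SLAM genes of killer cell contact 3 rose and 1 fell (median 0.28), or 42.9% and 14.3%, beside 10.4% and 18.9% of all tested genes. ICAM1 rose by 1.82 on the log2 scale (limma adjusted p = 0.00118). SLAMF7, a myeloma surface antigen that is also a natural killer cell receptor, was at 160 and 139 TPM with periplocin, against 47.8 and 49.9 TPM with DMSO (1.59, 0.00218). CD48, the ligand of 2B4, was at 399.5 and 434 TPM with periplocin, against 234 and 247 TPM with DMSO (0.79, 0.00394). ICAM2, another LFA-1 ligand, fell to 59.9 and 62.5 TPM with periplocin, against 101.8 and 99.6 TPM with DMSO (-0.71, 0.00542).

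Of the enzymes and inhibitors of ligand shedding 1 of 5 tested rose and none fell (median 0.18), beside 10.4% and 18.9% of all tested genes. ADAM17, the sheddase of TNF and of NKG2D ligands, was at 24.4 and 26.8 TPM with periplocin, against 14.5 and 15.7 TPM with DMSO (0.72, limma adjusted p = 0.0151). It did not pass with any 1 library left out and the same genes tested. Without either DMSO library that holds for every tested gene, so it says nothing of ADAM17 itself.

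Of the genes that handle PD-L1 and CD47 protein 2 of 8 tested rose and 3 fell (median -0.03), beside 10.4% and 18.9% of all tested genes. CALR, an endoplasmic reticulum chaperone that on the cell surface promotes engulfment and opposes CD47, fell to 564 and 541 TPM with periplocin, against 1051 and 1005 TPM with DMSO (-0.90, limma adjusted p = 0.00245). CMTM6, which protects PD-L1 from breakdown, was at 35.5 and 40.8 TPM with periplocin, against 26.1 and 27.2 TPM with DMSO (0.50, 0.0321). GSK3B, a kinase that marks PD-L1 for breakdown, was at 21.3 and 27.8 TPM with periplocin, against 15.7 and 13.6 TPM with DMSO (0.70, 0.0341). COPS5, which removes ubiquitin from PD-L1, fell (-0.53, 0.0224), as did QPCTL (-0.46, 0.0433), named after its value was seen, whose enzyme modifies the SIRP-alpha binding site of CD47. CMTM6, GSK3B, COPS5 and QPCTL did not pass without the trend (0.0656, 0.0640, 0.0549 and 0.0619), nor did COPS5 and QPCTL with size factors (0.0606 and 0.114).

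Of 24 genes known to regulate transcription of such ligands, all tested, 8 rose and 3 fell (median 0.34), or 33.3% and 12.5%, beside 10.4% and 18.9% of all tested genes. FOS, a subunit of AP-1, was at 5.26 and 8.13 TPM with periplocin, against 1.96 and 2.33 TPM with DMSO (1.27, limma adjusted p = 0.0208). SP1, which binds GC boxes, rose to 44.7 and 43.3 TPM with periplocin, against 20.0 and 21.9 TPM with DMSO (1.04, 0.00458). JAK2, a kinase of interferon gamma signalling, fell to 2.01 and 2.60 TPM with periplocin, against 6.78 and 9.31 TPM with DMSO (-1.44, 0.0118). IRF1, named after its value was seen, acts downstream of that kinase on the CD274 promoter and fell (-0.97, 0.00507). MYC fell by 1.11 on the log2 scale (0.00218). RELB, an NF-kB subunit, rose (0.92, 0.00778), as did DDIT3 (0.96, 0.00566), CHEK1 (0.71, 0.00697), STAT3 (0.50, 0.0263), E2F1 (0.49, 0.0204) and NFKB2 (0.39, 0.0146). The NF-kB genes NFKB1 (0.22, 0.191) and RELA (0.22, 0.168) did not pass. RELB and the genes listed after it were named after their values were seen. With no filter on low values FOS (0.0896) and JAK2 (0.0625) did not pass. Other settings are not given for DDIT3, CHEK1, STAT3, E2F1 and NFKB2.

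Over the 61 tested companion genes of these lists 16 rose and 9 fell, or 26.2% and 14.8%, beside 10.4% and 18.9% of all tested genes. They were 28 and 5 after scaling by size factors, where 15.8% of all tested genes were called higher and 13.3% lower, and 29 and 5 after median centring, where 16.4% and 12.0% were. With either DMSO library left out and the same genes tested none was called, nor was any other gene. The companion lists were chosen with earlier results of these data known, and their median log2 fold change was 0.22, against -0.14 over all tested genes.

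**Figure D5:**
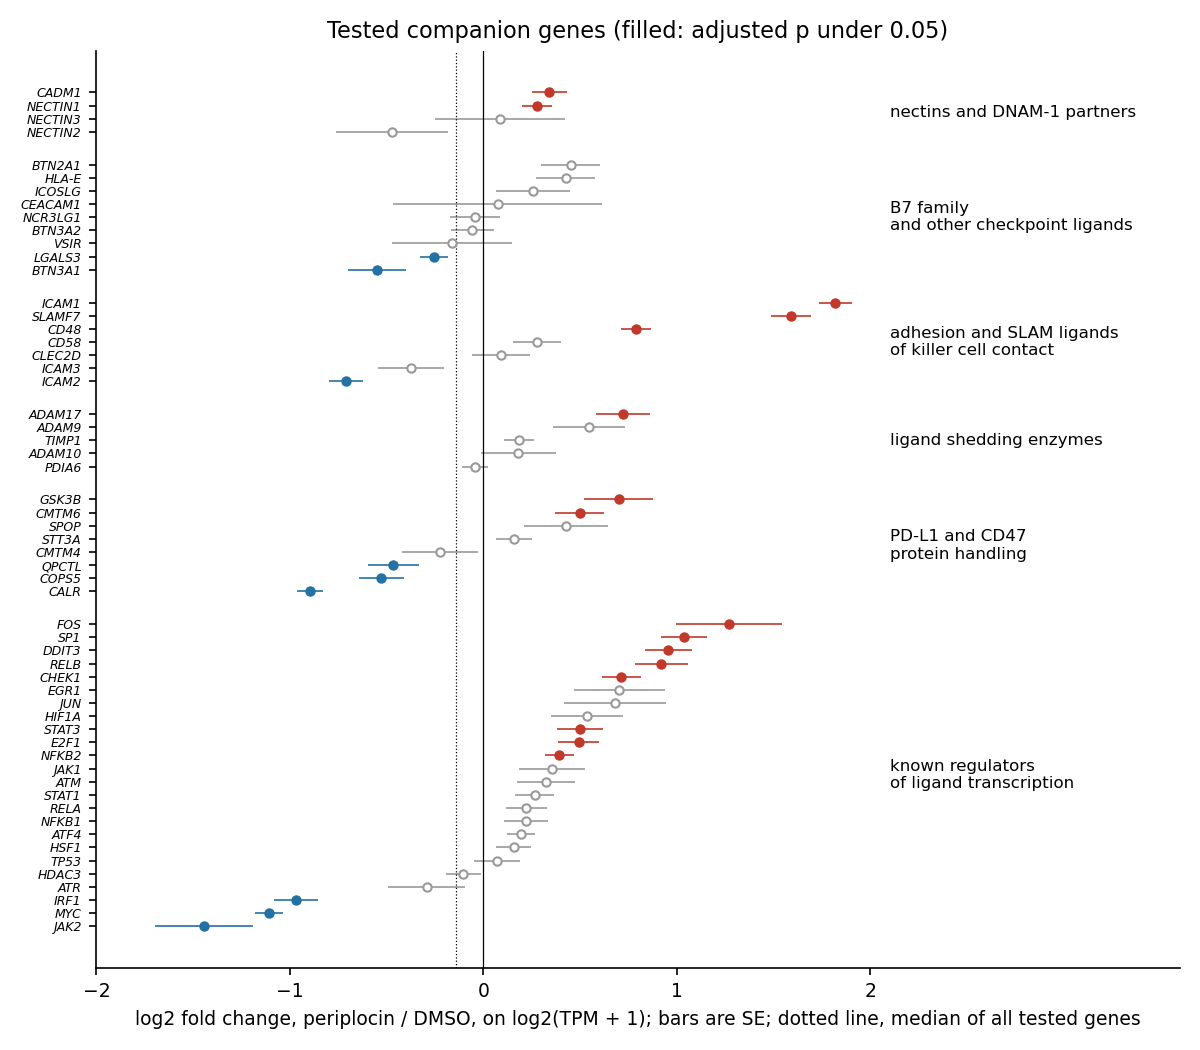
Log2 fold change of periplocin over DMSO on log2(TPM + 1) with standard errors for the tested genes of 6 companion lists, filled red where called higher, filled blue where called lower and open grey where not called (limma adjusted p under 0.05). ICAM1 (1.82) and SLAMF7 (1.59) lie furthest to the right and JAK2 (-1.44) furthest to the left; the dotted line is the median of all tested genes (-0.14).

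The libraries carried the plasma cell markers of the labelled cell type: 8 of 8 were tested, none was called higher and 4 were called lower (IRF4, XBP1, PRDM1 and MZB1, named after their values were seen), beside 18.9% of all tested genes. Their summed level, most of it JCHAIN (6576 and 7208 TPM with periplocin, 6201 and 6763 TPM with DMSO) and SDC1 (2396 and 2182 TPM, against 2403 and 2239.7 TPM), was 9974 and 10422 TPM with periplocin and 9815 and 10197 TPM with DMSO. Summed levels were 48.6 and 47.4 TPM with periplocin and 44.7 and 42.9 TPM with DMSO for 7 T and NK cell markers, most of it NCAM1, which myeloma cells can express, with CD3D and CD2 listed at 0 and NKG7 called lower (-1.54, limma adjusted p = 0.0465). The part of these markers in the results above was not tested. Summed levels were 4.08 and 3.81 against 3.80 and 3.63 TPM for 5 myeloid markers, with FCGR3A listed at 0. They were 0.279 and 0.832 against 0.786 and 1.28 TPM for 4 B cell markers. The number of genes at 1 TPM or more was 12357 and 12463 with periplocin and 12892 and 12915 with DMSO.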

How the data were processed

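RNA of AMO1 cells was sequenced in 2 periplocin and 2 DMSO libraries. The authors deposited TPM values per gene, given as shares of each library's total. The submitters' processing notes name GRCh38 and DESeq2, with no role; the quantifier and its annotation were not given in the sources used here. Depth is unknown, so no counting interval is given. Columns written PP were read as periplocin. Symbols came from a current gene names table (34436 of 37247 identifiers matched) and positions from GENCODE 29 (34620 matched). Genes at 1 TPM or more in 2 or more libraries were kept (12947), and log2(TPM + 1) was tested with limma-trend (limma 3.58.1, R 4.3.3), two-sided, Benjamini-Hochberg adjusted over all tested genes, threshold 0.05. This scale understates changes of low genes. The fit had 2 residual and 4.01 prior degrees of freedom. On simulated data the fit gave unbiased changes of the right sign and few false calls. Far fewer genes were changed there than were called here, and noise was drawn independently for each library. The rate of false calls in these data is therefore not shown. A first requirement on the share of large changes recovered was not met and was dropped, so 2 libraries a group miss some real changes. An adjusted p given alone after a value in parentheses is limma's.

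The members and lists were chosen with earlier results of these data known. Named were all 10 members, up to 4 called genes with the largest change of each companion list (or the 2 most abundant where none was called), the 5 genes most like TNFSF9 and the called neighbours within 100 kb. Others are said to have been chosen after their values were seen. Word sharing was counted over 31-base words of GENCODE 29 transcripts. Alternatives changed the pseudocount, filter, scaling, trend, replicate block, symbol rows and libraries. Python 3.11.15, pandas 2.3.3, numpy 2.4.6 and matplotlib 3.10.9 were used.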

Additional observations from a re-analysis of the deposited data

How the results depend on the processing

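Of all tested genes 1352 were higher and 2443 lower as reported. With no filter on low values 613 and 1026 were, after size factors 2046 and 1724, after quantile normalization 1757 and 1758, after median centring 2117 and 1553, and without the trend 876 and 1932; over all genes the median change was -0.01 with size factors and 0.02 with median centring. Companion genes called higher and lower were 9 and 4 with no filter, 28 and 5 using size factors, 29 and 5 using median centring, and 5 lower without the trend. With 1 library left out the counts ranged from 0 to 522 higher and from 0 to 1142 lower over all genes, from 0 to 2 and 0 to 0 over the members, and from 0 to 8 and 0 to 5 over the companion genes; the lowest came without DMSO replicate 1 and without DMSO replicate 2 alike (limma; 3925 and 4156 genes had an unadjusted p under 0.05). When the filter on low values was redrawn on the remaining 3 libraries, an alternative chosen after seeing the data, they were 583, 875, 1088 and 923 higher and 911, 1107, 2131 and 2011 lower (without DMSO replicate 1, DMSO replicate 2, periplocin replicate 1 and periplocin replicate 2), with 7 to 13 and 4 to 6 over the companion genes, and TNFSF9 and CD70 were called each time. Fold changes turned for 3 genes that were never called. EDA turned to 0.060 with quantile normalization and 0.085 without periplocin replicate 1 (-0.57 to 0.085 with a library left out). CD27 turned to 0.082 without periplocin replicate 2 (-1.04 to 0.082). IFT57 turned to 0.053 with size factors, 0.050 with quantile normalization, 0.074 with median centring and 0.0062 without DMSO replicate 2 (-0.19 to 0.0062). With the filter redrawn all 3 also turned. SLC25A23 also passed with the replicate block (0.0291) and, with the filter redrawn, without periplocin replicate 2 (0.0440). The cause was not tested. Samples share only a number across groups: deviations of same-numbered libraries correlated at 0.03 across genes, and with the replicate block 1685 genes were higher and 2876 lower, 3 members were higher (CD47 added, as with median centring), and 22 companion genes were higher and 9 lower. Summing the rows of a symbol could not join rows that have no name, and whether any of these hold MHC genes was not tested. Depth is unknown, so the limit of detection behind values near 0 cannot be given.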
